A study of Mus musculus with 7 samples.

Results

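Prkcd, Ppp1r1b, Foxp2, Meis2, Isl1, Rgs9, Rarb, Pde10a and Dlk1 are genes used to recognise projection neurons of the central amygdala and of the neighbouring striatum. They were taken by symbol from the table of raw counts, where each of the 9 had a row among 35976 gene symbols. All 9 passed the filter on low counts. Male C57BL/6J mice had Cas9 under the hSyn promoter, which drives expression in neurons, and received an adeno-associated virus in the amygdala. In 3 libraries its guide RNA was directed at Nr2f2 (sgNr2f2), and in 4 control libraries at Rosa (sgRosa). Both groups were then held in restraint tubes on 7 days, fear conditioned on 1 day and given extinction on 3 days, so no unstressed group stands beside them. Papain-digested amygdala was enriched for neurons with a magnetic kit, and each library was built from 5 ng of RNA. Age and the number of animals behind a library are not given in the labels, so the p-values reflect only how far these libraries varied, which may be partly technical.

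The central amygdala and the striatum both consist largely of GABA neurons that arise from the ganglionic eminences, and they share much of their gene expression. Striatal projection neurons receive dopamine through Drd1 or Drd2 receptors, which raise or lower cyclic AMP. Ppp1r1b (DARPP-32), Rgs9 and Pde10a act along that signal. Prkcd, by contrast, marks a class of neurons in the lateral part of the central amygdala, and is also strong in thalamic relay neurons. The striatum lies beside the amygdala, and since many markers are shared, their levels do not measure how much of each tissue a library held.

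The question behind the comparison was whether these genes moved with the Nr2f2 guide, and whether single libraries carried striatal signal. Nr2f2, the nuclear receptor targeted, lay at 19.8, 16.5, 11.3 and 13.1 counts scaled to a common total (CPM, on library sizes scaled by edgeR's TMM factors) in sgRosa replicates 1 to 4. In sgNr2f2 replicates 1 to 3 it lay at 11.9, 12 and 11.6 CPM. Its log2 fold change was -0.36 (SE 0.37, adjusted p = 0.905 by edgeR's quasi-likelihood test with Benjamini-Hochberg adjustment). Guide-made cuts need not lower a transcript's count, so this level does not measure editing. Library totals ran from 6266897 counts in sgRosa replicate 4 to 20928677 in sgNr2f2 replicate 3. sgRosa replicate 4 also stood apart in its profile, with a mean correlation of 0.723 with the other libraries against 0.876 to 0.900 for those. Although neurons had been enriched, the summed level of 10 oligodendrocyte genes was 22954 to 408057 CPM, and that of 12 pan-neuronal genes 570 to 2134 CPM. In bulk RNA of this kind, fewer cells of a type and less RNA per cell cannot be told apart.

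Among the signalling genes, Prkcd encodes protein kinase C delta (chromosome 14, 30595353 to 30626414, GRCm38.p6). It lay at 17.5, 23.8, 8.50 and 1.91 CPM in sgRosa replicates 1 to 4. Its level was 28.2, 19.3 and 34.9 CPM in sgNr2f2 replicates 1 to 3. sgNr2f2 replicate 3 was highest and sgRosa replicate 4 lowest, and the groups overlapped because sgRosa replicate 2 lay above sgNr2f2 replicate 2. The means were 12.9 ± 9.66 CPM (SD, n = 4) and 27.4 ± 7.82 CPM (SD, n = 3). For Prkcd the log2 fold change was 1.08 (SE 0.66, 95% interval -0.40 to 2.55, adjusted p = 0.868, edgeR with Benjamini-Hochberg adjustment), so the difference was within what the spread allows. Prkcd is also a gene of thalamic neurons, and of 9 thalamic genes 6 lay above and 3 below 0, with a median log2 fold change of 0.06. The summed level of the 9 thalamic genes was 348 to 716 CPM in the control libraries and 436 to 618 CPM with the Nr2f2 guide, which overlap, and it was highest in sgRosa replicate 4, where Prkcd was lowest. The 4 libraries highest in Prkcd were also the 4 highest for the summed choroid plexus genes. Of these libraries, 2 were among the 4 highest for the thalamic genes. The part of thalamic or choroid plexus cells in the level of Prkcd was not tested.

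Ppp1r1b encodes DARPP-32, which inhibits protein phosphatase 1 once protein kinase A has phosphorylated it (chromosome 11, 98348406 to 98357796). Its level was 2.72, 15.5, 11 and 4.36 CPM in sgRosa replicates 1 to 4. The 3 sgNr2f2 libraries, in the same order, held 12.9, 2.30 and 32.4 CPM. Both the highest and the lowest library were sgNr2f2 libraries, a range of 41 to 536 counts within 1 group. For Ppp1r1b the log2 fold change was 0.91 (SE 0.81, 95% interval -0.88 to 2.71, edgeR adjusted p = 0.893), and it turned to -0.13 without sgNr2f2 replicate 3. The 4 libraries highest in Ppp1r1b were sgNr2f2 replicate 3, sgRosa replicate 2, sgNr2f2 replicate 1 and sgRosa replicate 3. These were also the 4 highest in the summed oligodendrocyte genes, at 315479 to 408057 CPM, while the other 3 held 22954 to 165816 CPM. Of the 20 marker lists summed, those of oligodendrocyte precursors, microglia and meningeal fibroblasts were highest in the same 4 libraries too. Within the 4, the order of libraries differed from that of Ppp1r1b in each of these lists and in the oligodendrocyte list. Rarb was highest in the same 4 libraries, so these matches are not particular to Ppp1r1b. How often a gene and a list share their 4 highest libraries by chance was not computed. The part of any of these cell types in the level of Ppp1r1b was not tested.

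Rgs9, a regulator of G-protein signalling whose striatal form shortens dopamine receptor signals (chromosome 11, 109225348 to 109298181), was low. It lay at 1.17, 0.87, 0.95 and 3.00 CPM in sgRosa replicates 1 to 4, from 14 to 25 counts each. In sgNr2f2 replicates 1 to 3 it had 0, 2 and 42 counts, the last equal to 2.54 CPM. The count of 0 in sgNr2f2 replicate 1 allows up to 0.182 CPM (3 counts, counting error only). Rgs9 was therefore present in sgNr2f2 at more than 2 counts in only sgNr2f2 replicate 3. The log2 fold change was -0.73 (SE 1.26, 95% interval -3.54 to 2.08, edgeR adjusted p = 0.947). Without sgNr2f2 replicate 3 the mean of the sgNr2f2 group fell from 0.88 to 0.056 CPM, which rests on those 2 counts. The 4 libraries highest in Rgs9 were also the 4 highest for the summed pan-neuronal genes and for the summed general GABA genes.

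Pde10a encodes a phosphodiesterase that degrades cyclic AMP and cyclic GMP in striatal projection neurons (chromosome 17, 8525187 to 8986648). It lay at 4.17, 4.17, 4.08 and 9.13 CPM in sgRosa replicates 1 to 4 and at 2.00, 6.56 and 11.7 CPM in sgNr2f2 replicates 1 to 3. sgRosa replicates 1 to 3 were nearly level, whereas the sgNr2f2 libraries spanned the whole range of the gene. The 4 libraries highest in Pde10a were also the 4 highest for a list of 26 further striatal genes. The log2 fold change was 0.33 (SE 0.61, 95% interval -1.02 to 1.69, edgeR adjusted p = 0.949), and it turned to -0.30 without sgNr2f2 replicate 3.

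**Figure D1:**
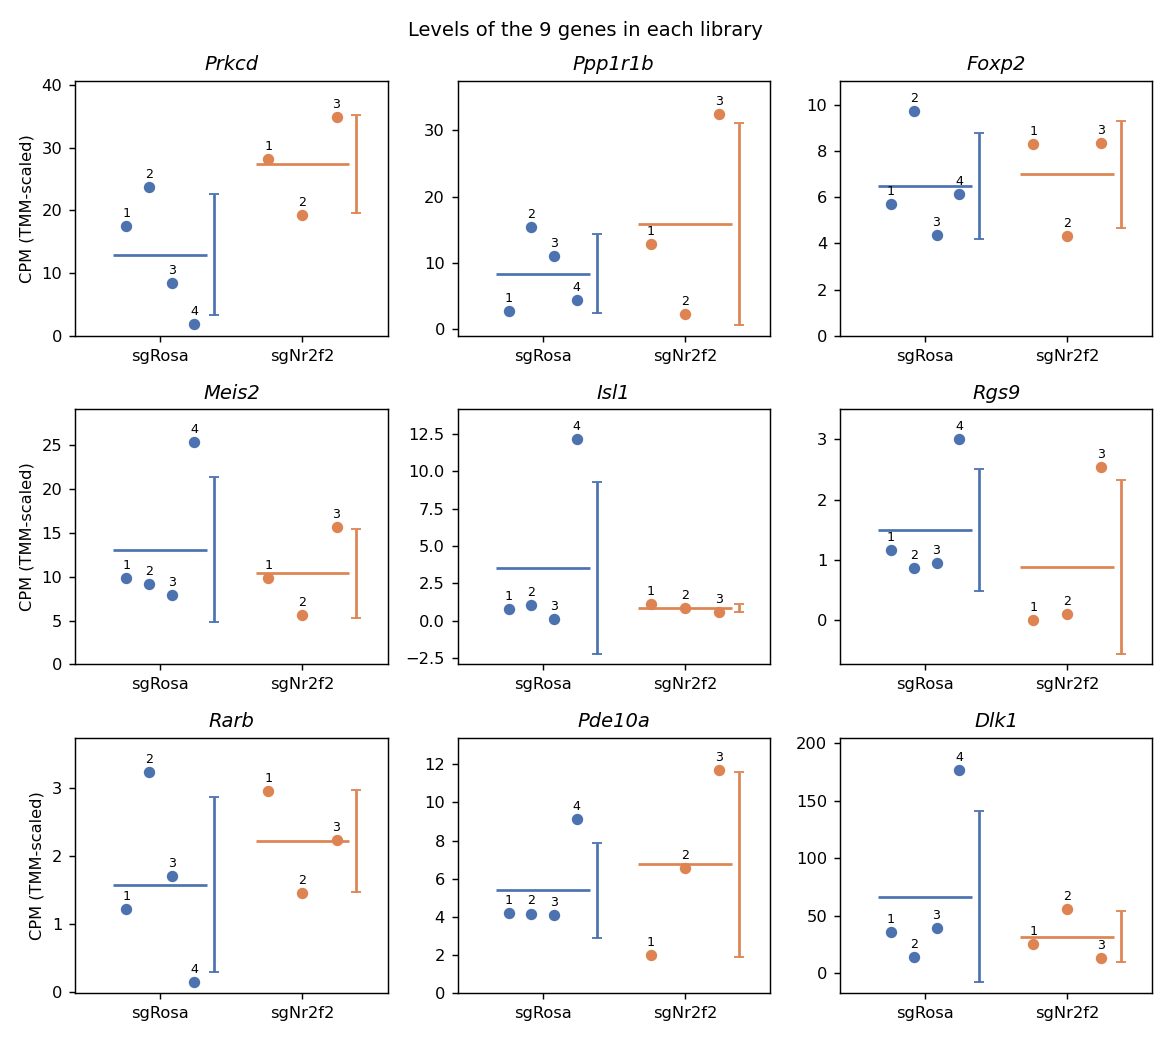
Levels of the 9 genes in each library. The vertical axes give CPM on TMM-scaled library sizes, each point is 1 library with its replicate number, horizontal lines are group means and the bars beside them mean ± SD (4 sgRosa and 3 sgNr2f2 libraries). sgRosa replicate 4 lay highest for Meis2, Isl1, Rgs9 and Dlk1, and sgNr2f2 replicate 3 for Prkcd, Ppp1r1b and Pde10a.

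The transcription factors had no common order of libraries, with Foxp2 and Rarb highest in sgRosa replicate 2 and Meis2 and Isl1 in sgRosa replicate 4. Foxp2 is a forkhead factor of striatal neurons and of the intercalated cells, small GABA cell groups at the border of the amygdala (chromosome 6, 14901349 to 15441977). It lay at 5.72, 9.75, 4.35 and 6.13 CPM in sgRosa replicates 1 to 4 and at 8.30, 4.32 and 8.35 CPM in sgNr2f2 replicates 1 to 3. Over the 7 libraries Foxp2 had the smallest SD relative to its mean of the 9 genes, with group means of 6.49 ± 2.30 CPM (SD, n = 4) and 6.99 ± 2.31 CPM (SD, n = 3). Its log2 fold change was 0.11 (SE 0.47, 95% interval -0.93 to 1.15, edgeR adjusted p = 0.978). The 4 libraries highest in Foxp2 were also the 4 highest for the summed genes of excitatory neurons.

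Meis2, a homeodomain factor kept in neurons from the lateral ganglionic eminence (chromosome 2, 115861264 to 116067537), lay at 9.84, 9.20, 7.89 and 25.3 CPM in sgRosa replicates 1 to 4. In sgNr2f2 replicates 1 to 3 it lay at 9.87, 5.61 and 15.7 CPM. sgRosa replicate 4 was the highest library and sgNr2f2 replicate 3 came next, with the others between 5.61 and 9.87 CPM. Its log2 fold change of -0.32 (SE 0.55, 95% interval -1.53 to 0.88, edgeR adjusted p = 0.947) turned to 0.21 without sgRosa replicate 4.

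Isl1, a LIM homeodomain factor needed for striatal neurons of the direct pathway and also expressed by hypothalamic neurons (chromosome 13, 116298270 to 116309688), rested on 1 library. It lay at 0.80, 1.08, 0.14 and 12.1 CPM in sgRosa replicates 1 to 4, the last from 89 counts. In sgNr2f2 replicates 1 to 3 it lay at 1.15, 0.84 and 0.61 CPM. Leaving out sgRosa replicate 4 lowered the control mean from 3.54 to 0.67 CPM, and turned the log2 fold change from -1.98 (SE 1.24, 95% interval -4.73 to 0.77, edgeR adjusted p = 0.868) to 0.35. The same library was highest for 10 of 14 hypothalamic genes, whose summed level was 1252 CPM there against 28.1 to 445 CPM elsewhere. It was also highest in the sums of pan-neuronal genes (2134 CPM) and erythroid genes (31591 CPM). Isl1 was not high in sgNr2f2 replicate 2, which held the second-highest hypothalamic sum but was highest for only 1 of the 14 genes. The part of hypothalamic cells in the level of Isl1 was not tested.

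Rarb encodes retinoic acid receptor beta, which is expressed in the striatum and is itself a target of retinoic acid signalling (chromosome 14, 16430839 to 17082331). It lay at 1.22, 3.25, 1.70 and 0.14 CPM in sgRosa replicates 1 to 4 and at 2.97, 1.46 and 2.24 CPM in sgNr2f2 replicates 1 to 3. The lowest library, sgRosa replicate 4, held 1 count. The 4 libraries highest in Rarb were the 4 highest in Ppp1r1b. They were thus also highest for the oligodendrocyte, oligodendrocyte precursor, microglia and meningeal fibroblast genes. The part of those cells in the level of Rarb was not tested. The log2 fold change was 0.47 (SE 0.82, 95% interval -1.34 to 2.27, edgeR adjusted p = 0.947). The annotated Rarb overlaps Top2b on the opposite strand, and the strand setting of the counting is not given in the sources used here, so reads of the pair may not have been told apart.

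Rarb and Pde10a are shown because, of the 7 genes with a RefSeq promoter window, they were the ones with a nuclear receptor motif in it. The windows (GRCm38.p6, from 250 bases before to 50 after a start) numbered 9. The motifs AGGTCA and GGGTCA were searched on both strands, as were direct repeats of them or of the variants AGTTCA and GGTTCA with 1 to 5 bases between. The 150 bases before each start are printed in the direction of transcription, Rarb from the minus strand of chr14:16575477-16575626 and Pde10a from the plus strand of chr17:8849835-8849984. Capitals mark the matches.
Rarb: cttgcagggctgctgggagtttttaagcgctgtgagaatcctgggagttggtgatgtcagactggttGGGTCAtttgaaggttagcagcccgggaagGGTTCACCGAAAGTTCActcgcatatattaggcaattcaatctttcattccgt
Pde10a: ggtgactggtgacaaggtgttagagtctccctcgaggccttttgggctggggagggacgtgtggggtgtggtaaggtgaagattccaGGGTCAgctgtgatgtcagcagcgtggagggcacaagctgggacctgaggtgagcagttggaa

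The Rarb window held the single motif GGGTCA and, nearer the start, a direct repeat with 5 bases between its parts, the arrangement of the retinoic acid response element described for this gene. Of all 32851 promoter windows, 27.5% held AGGTCA or GGGTCA, 0.700% held any of the direct repeats and 32 windows held one with 5 bases between. The second Pde10a start was the one that held GGGTCA. A match describes letters in this window and says nothing of binding by any receptor in these cells.

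Dlk1 encodes an imprinted transmembrane protein of the Notch ligand family, with expression in the hypothalamus among other places (chromosome 12, 109452485 to 109463336). It lay at 35.6, 13.7, 39.6 and 176.8 CPM in sgRosa replicates 1 to 4 and at 25.3, 56.1 and 13.0 CPM in sgNr2f2 replicates 1 to 3. By CPM sgRosa replicate 4 stood far above the rest and raised the sgRosa mean from 29.6 to 66.4 CPM. The log2 fold change of -1.08 (SE 0.83, 95% interval -2.92 to 0.77, edgeR adjusted p = 0.877) turned to 0.086 without that library. As a share of the pan-neuronal sum Dlk1 was 8.97% in sgNr2f2 replicate 2 and 8.28% in sgRosa replicate 4, against 1.76% to 4.88% elsewhere. As a share of the GABA sum it was 145% and 204% in these libraries. Dlk1 was highest in sgRosa replicate 4 and sgNr2f2 replicate 2, which also held the 2 highest sums of hypothalamic genes, at 1252 and 445 CPM, while sgRosa replicate 3, the third in Dlk1, held the lowest, 28.1 CPM. The 4 libraries highest in Dlk1 were the 4 highest for the further central amygdala genes, the endothelial genes and the erythroid genes, and 3 of them were among the 4 highest for the hypothalamic genes. The part of any of these cells in the level of Dlk1 was not tested.

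Across the 9 genes, no change between sgNr2f2 and sgRosa passed the test. edgeR with Benjamini-Hochberg adjustment called 0 of 9, and 0.0% of all 14412 genes tested. At an unadjusted p under 0.05 it had 0 of 9, against 5.0% of all genes. DESeq2 and limma-voom also called 0 of 9, although DESeq2 called 7 other genes. The groups overlapped for all 9 genes, against 8.31% of genes tested whose groups did not overlap. Prkcd, Ppp1r1b, Foxp2, Rarb and Pde10a lay above 0 and Meis2, Isl1, Rgs9 and Dlk1 below, against 43.8% above and 56.2% below among all genes. With library size alone 4 lay above and 5 below, and with pan-neuronal or GABA scaling 6 above and 3 below. The median log2 fold change of the 9 was 0.11, and -0.11 over all genes tested. The 95% intervals reach 2.71 upward and -4.73 downward, so changes of several-fold cannot be told from none with these libraries.

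**Figure D2:**
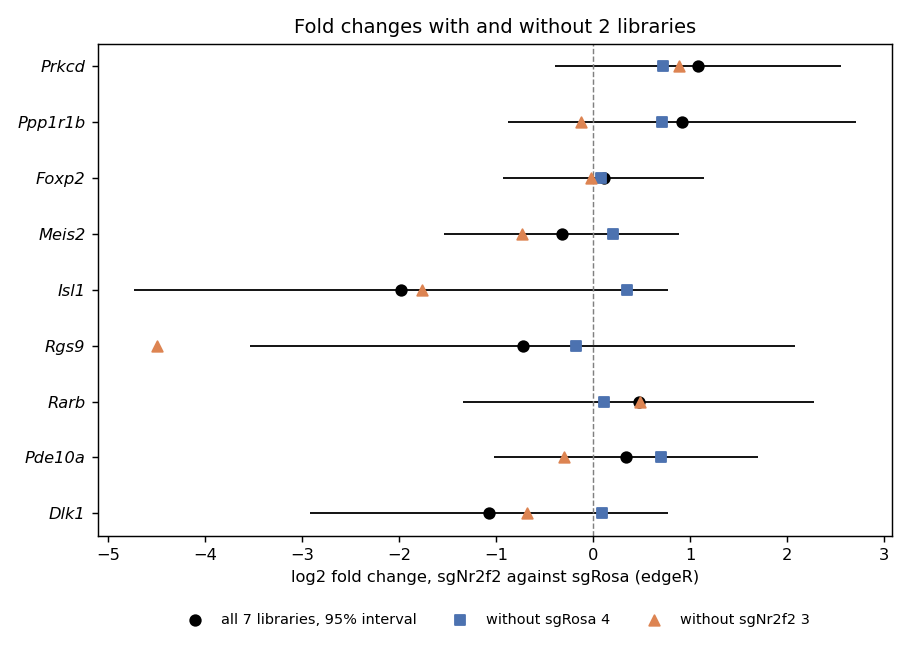
Log2 fold change of sgNr2f2 against sgRosa by edgeR for each gene. Black points with lines give the fit on 7 libraries with its 95% interval, squares the fit without sgRosa replicate 4 and triangles the fit without sgNr2f2 replicate 3. Every interval spans 0, Meis2, Isl1 and Dlk1 change sign without the former library, and Ppp1r1b, Foxp2 and Pde10a without the latter.

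Per kilobase of exon, Dlk1 had the highest level at 9.09 ± 10.1 CPM per kilobase (SD, n = 7 libraries). Ppp1r1b at 3.96 ± 3.61 and Prkcd at 3.45 ± 2.03 CPM per kilobase followed, and these 3 did not differ beyond their spread. The means of the other 6 genes were lower, from Meis2 at 0.99 ± 0.55 to Rgs9 at 0.19 ± 0.18 CPM per kilobase. Isl1, Pde10a, Foxp2 and Rarb fell between them at 0.35 to 0.60 CPM per kilobase, and neighbours in that order lay within their spread. Meis2 also lay within the wide spread of Dlk1 and Ppp1r1b. Single libraries differed from this order: in sgRosa replicate 4 Isl1 (3.06) and Meis2 (2.10) lay above Ppp1r1b (1.49) and Prkcd (0.34 CPM per kilobase).

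The 9 genes did not follow a common course over the libraries. Their own distances from their mean profile (root mean square of log2 values over 7 libraries) ran from 0.33 for Foxp2 to 1.43 for Isl1. The genes whose profile was most like that mean were Zbtb43, Mta3, Exoc8, Dock3 and Usp20, at distances of 0.154 to 0.188 among 10482 genes. The mean ran only from -0.44 to 0.60 in log2, because unlike profiles were averaged. Nearness to it therefore does not show that these genes vary together with the 9. The likeness was computed for genes with a mean count of at least 50, which Isl1, Rgs9 and Rarb did not reach.

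Whether a single library carried striatal signal was read from the highest library of each gene. By CPM, sgRosa replicate 4 was highest for Meis2, Isl1, Rgs9 and Dlk1, and sgNr2f2 replicate 3 for Prkcd, Ppp1r1b and Pde10a. Among all genes tested, sgRosa replicate 4 was highest for 32.7% and sgNr2f2 replicate 3 for 8.31%. Divided by the summed pan-neuronal genes, sgNr2f2 replicate 3 was highest for Prkcd, Ppp1r1b, Meis2, Rgs9 and Pde10a, and sgRosa replicate 4 for Isl1 alone. On that scale sgNr2f2 replicate 3 was highest for 6.65% of all genes tested and sgRosa replicate 4 for 6.83%, while sgRosa replicate 4 was lowest for 63.3%. Rgs9 was then 0.35% of the pan-neuronal sum in sgNr2f2 replicate 3 and 0 to 0.15% in the others. Pde10a was 1.59% there, against 0.28% to 1.05% elsewhere.

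The same 2 libraries led a list of 10 genes that define striatal projection neurons, of which some are named here after their values were seen. Their summed level was 59.8 CPM in sgNr2f2 replicate 3 and 45.0 CPM in sgRosa replicate 4, against 11.5 to 26.5 CPM in the other 5 libraries. As a share of the pan-neuronal sum it was 8.12% in sgNr2f2 replicate 3, 2.11% in sgRosa replicate 4 and 1.83% to 3.73% in the others. As a share of the summed general GABA genes it was 140.1%, 52.0% and 30.5% to 98.0%. By this list sgNr2f2 replicate 3 was highest on all 3 scales, and sgRosa replicate 4 was above the other 5 libraries by CPM but within their range as a share. The wider list of 26 striatal genes, which holds these 10, set the libraries less far apart. Its sum was highest in sgRosa replicate 4 (817 CPM) and next in sgNr2f2 replicate 3 (574 CPM). Penk alone held 417.1 CPM of the first sum and 115.2 CPM of the second, so this order leans on a single gene. As a share of the pan-neuronal sum the list was 78.0% in sgNr2f2 replicate 3 and 68.9% in sgNr2f2 replicate 2. The others held 38.3% to 55.5%. Penk is part of that share too, and was 24.4 CPM in sgNr2f2 replicate 2. Of the 431 CPM summed there, Ebf1 held 125.5 and Foxp1 107.9 CPM, against 66.3 and 65.4 CPM in sgNr2f2 replicate 3. The nearness of these shares therefore leans on Ebf1 and Foxp1.

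Single genes of that list were uneven within sgNr2f2 replicate 3. Lrrc10b had 98 counts (5.93 CPM) against at most 0.98 CPM elsewhere, and Gpr6, a receptor of the indirect pathway, 39 counts against 0 to 8. Yet the dopamine receptors did not lead: Drd1 had 5 counts and Drd2 11 counts in that library, and Ido1 was at 0. The summed level of 12 genes of excitatory neurons of the cortex and basolateral amygdala was 353 CPM there and did not set it apart from the other libraries, which held 113 to 420 CPM. Whether tissue from outside the amygdala gave these levels was not tested.

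**Figure D3:**
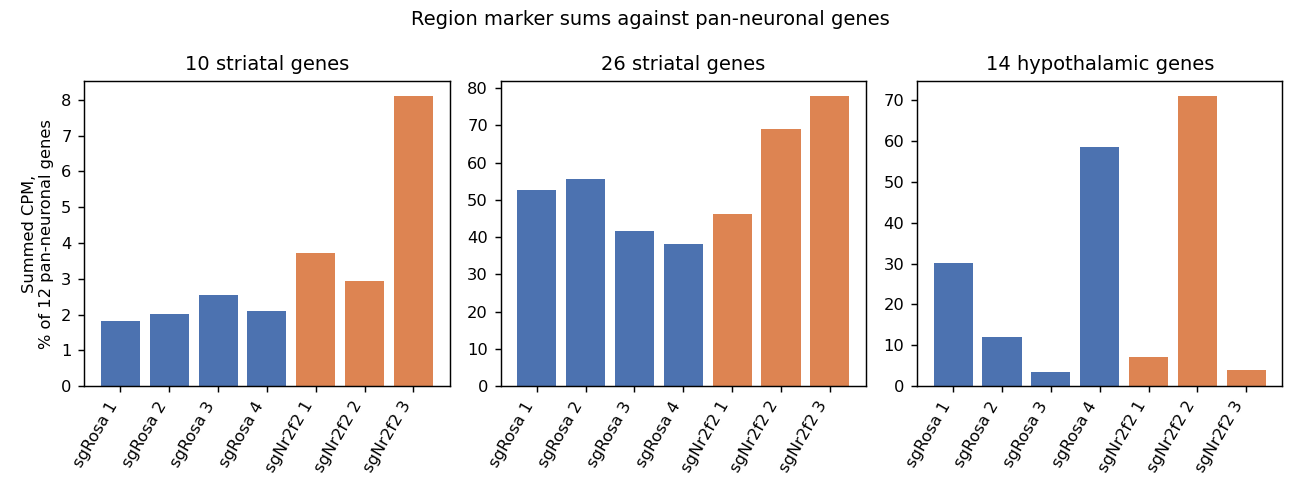
Summed CPM of 10 striatal genes (left), of the wider list of 26 striatal genes that holds them (middle) and of 14 hypothalamic genes (right) in each library, as a percentage of the summed CPM of 12 pan-neuronal genes; bars are single libraries, blue for sgRosa and orange for sgNr2f2. The share in sgNr2f2 replicate 3 is 8.12% against at most 3.73% elsewhere in the left panel and 78.0% against at most 68.9% in the middle one, and the hypothalamic share is highest in sgNr2f2 replicate 2 (71.1%) and sgRosa replicate 4 (58.7%).

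Other genes of the same neurons and pathways were read from lists, of which edgeR with Benjamini-Hochberg adjustment called 0 genes in every case. Of the 26 striatal genes 21 were tested, 12 above and 9 below 0, with a median log2 fold change of 0.04 and 0 at an unadjusted p under 0.05. Penk, the enkephalin precursor of the indirect pathway, lay at 18.9 to 43.3 CPM in sgRosa replicates 1 to 3 and at 417.1 CPM in replicate 4. In sgNr2f2 replicates 1 to 3 Penk lay at 12.5, 24.4 and 115.2 CPM. Its log2 fold change was -1.35 (SE 1.12, edgeR adjusted p = 0.890), 0.57 without sgRosa replicate 4 and -2.79 without sgNr2f2 replicate 3. Foxp1 lay at 40.2 to 171.9 CPM under sgRosa and 52.3 to 107.9 CPM under sgNr2f2, Ebf1 at 17.9 to 107.2 and 69.0 to 125.5 CPM, and Rasgrp2 at 23 to 67.2 and 28.3 to 70.7 CPM.

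Further central amygdala genes lay mostly below 0, and none passed the test. Of 14 genes 13 were tested, 2 above and 11 below 0, with a median log2 fold change of -1.27. Of these 4 had an unadjusted p under 0.05, and 1, Npy1r, named after its values were seen, had groups that did not overlap. Over all genes tested the shares were 56.2% below 0, 5.0% at that p and 8.31% not overlapping. The pan-neuronal genes also lay mostly lower, 10 of 12 below 0 with a median of -0.67. By CPM, sgRosa replicate 4 was highest for 9 of the 14 central amygdala genes. Their summed level there was 256 CPM, below sgRosa replicate 1 (381 CPM) and sgNr2f2 replicate 2 (307 CPM). As a share of the pan-neuronal sum the list was lowest in sgRosa replicate 4, with 15.2% to 49.1% in the other libraries. It was lowest there as a share of the GABA sum too, at 296% against 401% to 793%. Sema3c alone held 197.5 CPM of the sum in sgRosa replicate 1 and 221.7 CPM of that in sgNr2f2 replicate 2. In sgRosa replicate 4 it held 25.6 CPM, so these orders of sums and shares lean on a single gene. Sst, the somatostatin gene, lay at 12.3 to 98.7 CPM under sgRosa and 12.4 to 16.2 CPM under sgNr2f2, and Pnoc, the nociceptin precursor, at 2.98 to 41.3 and 3.33 to 5.44 CPM. Sema3c lay at 25.6 to 197.5 and 58.9 to 221.7 CPM, and Calcrl at 0.68 to 72.8 and 11.8 to 40.2 CPM. Of 6 intercalated cell genes 4 were tested, 1 above and 3 below 0, and 0 had an unadjusted p under 0.05. Tshz1 lay at 12.9 to 27.8 CPM under sgRosa and 16.5 to 22.8 CPM under sgNr2f2, Pbx3 at 5.25 to 8.99 and 6.66 to 15.5 CPM, and Eya2 at 0 to 2.27 and 0.06 to 1.29 CPM.

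Rarb belongs to the retinoid pathway, of which 12 of 16 further genes were tested, 7 above and 5 below 0, with a median of 0.10, and 1 had an unadjusted p under 0.05. The groups did not overlap for 1 of the 12, Rara, the alpha receptor, a share no different from the 8.31% of all genes tested. It lay at 4.59, 5.04, 6.05 and 14.6 CPM in sgRosa replicates 1 to 4 and at 16.1, 42.8 and 25.5 CPM in sgNr2f2 replicates 1 to 3. All 3 sgNr2f2 libraries were above all 4 sgRosa libraries, and the log2 fold change was 1.91 (SE 0.53, edgeR adjusted p = 0.868). Without sgRosa replicate 4 Rara passed the threshold in DESeq2 (log2 fold change 2.46) and with pan-neuronal scaling in edgeR (2.55), though not in edgeR with TMM (2.43). Stra6, a retinol transporter, lay at 28 to 71.0 CPM under sgRosa and 52.5 to 83.5 CPM under sgNr2f2. Aldh1a1, which makes retinoic acid, lay at 6.27 to 107.1 and 23.9 to 73.9 CPM, and Dhrs3, a retinal reductase, at 15.9 to 29.7 and 14.2 to 48.3 CPM.

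Of 20 genes of the cyclic AMP and DARPP-32 pathway all were tested, 11 above and 9 below 0, with a median of 0.18, and 2 had an unadjusted p under 0.05. The groups did not overlap for 1 of the 20, Prkaca, the catalytic subunit of protein kinase A, which was named after its values were seen, against 8.31% of all genes tested. For an unadjusted p under 0.05 the share over all genes was 5.0%. Prkar1a, a regulatory subunit, lay at 241.8 to 509.0 CPM under sgRosa and 463.5 to 559.0 CPM under sgNr2f2. Pde2a, another cyclic nucleotide phosphodiesterase, lay at 63.9 to 323.4 and 272.2 to 633.6 CPM. The phosphatase genes that DARPP-32 acts on lay at 29.4 to 308.0 and 299.6 to 560.2 CPM for Ppp1cb and at 95 to 665.2 and 108.0 to 139.1 CPM for Ppp1ca.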

How the data were processed

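Raw counts for each symbol in 7 libraries were used as the authors deposited them. The 7 single-library files equal the series table. The submitters' processing notes name fastp 0.23.2, STAR 2.7.5c, featureCounts 2.0.1, edgeR 3.42.4 and mm10. The strand setting, the annotation and the handling of multi-mapping reads are not given in those sources. Overlapping genes may therefore share reads. Groups were taken from the labels.

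The counts were fitted with edgeR 4.0.16 (R 4.3.3), by its quasi-likelihood test with TMM factors, its filter on low counts (14412 of 35976 genes kept) and a term for the group. Benjamini-Hochberg adjustment ran over all genes, with a threshold of 0.05. Alternatives were DESeq2 1.42.0, limma-voom (limma 3.58.1), other scalings and each library left out. On 1 set of simulated counts edgeR recovered 0% of 2-fold, 13.0% of 4-fold and 37.3% of 8-fold changes, with 1 false call. For limma-voom the shares were 0%, 7.25% and 25.4%, with 1 false call. DESeq2 recovered more, 6.25%, 43.5% and 83.6%, with 40 false calls. The simulation drew genes independently and held no outlying library like sgRosa replicate 4. Coordinates and promoters are RefSeq's (GRCm38.p6). Exon lengths are GENCODE M21's. Named are the 9 genes, Nr2f2, the 4 genes with the highest mean CPM of 5 related lists, and the 5 nearest profiles. Members and lists were chosen with earlier results of these data known. Intervals for counts cover counting error only, since no molecular identifiers are named.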

Additional observations from a re-analysis of the deposited data

Results flagged for a closer look

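Within the 4 sgRosa libraries, replicate 4 lay far from the others for 9 of the 33 levels examined (29 genes and 4 summed lists). Chance marks about 1 group in 20 where values are normally distributed, which CPM need not be. Among all 14412 genes tested, 18.6% had such an outlying library. For 14.1% of them it was replicate 4 on the high side. The related genes were picked by their mean over all 7 libraries, which this library itself raises. The levels there were 25.3 CPM for Meis2, 12.1 CPM for Isl1, 3.00 CPM for Rgs9, 9.13 CPM for Pde10a and 176.8 CPM for Dlk1. Among the related genes they were 417.1 CPM for Penk, 41.3 CPM for Pnoc, 14.6 CPM for Rara and 665.2 CPM for Ppp1ca. In all 9 cases replicate 4 was the highest sgRosa library, and it had the lowest total count, 6266897. The cause was not tested.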

How the results depend on the processing

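None of the 22 alternatives called any of the 9 genes, and the signs of Prkcd, Rgs9 and Rarb held in all of them. The count of genes called over the whole table was 0, but 7 in DESeq2, 372 (256 higher, 116 lower) in DESeq2 without sgRosa replicate 4 and 51 (39 higher, 12 lower) in pan-neuronal scaling without it. Leaving out 1 library at a time kept it at 0. Of the 9 genes 5 lay above 0. With 1 library left out this number was lowest, 2, in the absence of sgNr2f2 replicate 3 and highest, 8, in that of sgRosa replicate 4, and it was 8 without sgRosa replicate 4 in DESeq2 and in pan-neuronal scaling. Without 1 library at a time the log2 fold changes ran from -0.13 to 1.43 for Ppp1r1b, -0.041 to 0.39 for Foxp2, -0.74 to 0.21 for Meis2, -2.37 to 0.35 for Isl1, -0.30 to 0.76 for Pde10a, -1.79 to 0.086 for Dlk1 and -2.79 to 0.57 for Penk. Those of Prkcd ran from 0.72 to 1.57, Rgs9 from -4.49 to -0.17 and Rarb from 0.11 to 1.1.

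Signs turned as follows, and the cause was not tested. Without sgRosa replicate 4, DESeq2 gave 0.23 for Meis2, 0.39 for Isl1, 0.12 for Dlk1 and 0.59 for Penk, limma-voom 0.068 for Meis2, 0.56 for Isl1 and 0.037 for Penk, and pan-neuronal scaling 0.25, 0.35, 0.33 and 0.70 for Meis2, Isl1, Dlk1 and Penk. With all libraries, quality weights in limma-voom gave 0.44 for Meis2, 0.72 for Isl1 and 0.70 for Penk, pan-neuronal scaling 0.27 and GABA scaling 0.24 for Meis2, and library size alone -0.15 for Foxp2. Leaving out sgRosa replicate 4 and sgNr2f2 replicate 3 together, an alternative chosen after seeing the data like the GABA scaling, gave -0.36 for Ppp1r1b, -0.070 for Foxp2, 0.55 for Isl1 and 0.46 for Dlk1. Rara, not called in the main result, was called by DESeq2 (2.46) and in pan-neuronal scaling (2.55) without sgRosa replicate 4.

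Scaling moved the median log2 fold change of all genes from -0.11 to -0.33 (library size alone), 0.25 (pan-neuronal) and 0.26 (GABA). Relative to pan-neuronal genes, members highest in sgRosa replicate 4 went from 4 to 1, those highest in sgNr2f2 replicate 3 from 3 to 5, and striatal defining genes highest in sgRosa replicate 4 from 3 to 0. Relative to GABA genes, members highest in sgRosa replicate 4 were 2 and striatal defining genes 1.

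No label says that a replicate number marks a shared litter or day, so the numbers were not taken as pairs. Deviations from the group means correlated at -0.20, -0.26 and 0.090 between same-numbered libraries. With the replicate block 0 genes were called, 7 of the 9 lay above 0, and the block, in which sgRosa replicate 4 has no partner and does not bear on the fold change, gave 0.094 for Meis2, 0.60 for Isl1 and 0.076 for Penk. At 1 count, CPM was 0.136 in sgRosa replicate 4 and 0.0605 in sgNr2f2 replicate 3, which limits what can be read of Rgs9, Rarb and Isl1.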
